A study of Danio rerio with 14 samples.

Results

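Levels of the 5 Id (inhibitor of DNA binding) genes present in the data, id1, id2a, id2b, id3 and id4, were followed across 6 groups of zebrafish embryos. The genes were taken by symbol from a table of 13832 genes. Each had 1 RefSeq transcript: NM_131245 for id1, NM_201291 for id2a, NM_199541 for id2b, NM_152967 for id3 and NM_001039990 for id4. All 5 passed the filter on low counts in every comparison. RNA was sequenced from whole embryos in 14 libraries of polyadenylated RNA. The untreated groups were wild-type and bmp7-/- embryos at 6 hpf (hours post fertilization; shield stage) and at 8 hpf (70% epiboly), with 2 libraries each from pools of 40 embryos. The other groups were bmp7-/- embryos exposed at 4 hpf to cycloheximide (CHX, a drug that blocks translation) at 10 ug/ml for 30 minutes, either with an injection of 3 nl of BMP2/7 heterodimer protein at 120 nM or with none. These had 3 libraries each from pools of 50 embryos, collected 90 minutes after the injection.

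The mutant embryos carried the bmp7a allele sb1aub and came from homozygous parents that had been rescued with bmp7a mRNA, while wild-type embryos did not, so the mutation and the parentage cannot be told apart. The wild-type libraries are headed Aub-/+ in the count table, which names a heterozygous genotype, whereas their labels give wild-type. No buffer-injected group is among the libraries, so injection and protein cannot be told apart either. Total counts ran from 5034277 to 23153881 per library, and the bmp7 library at 8 hpf with replicate number 1 was the shallowest. The bmp7a transcript checked the labels of the untreated libraries. It lay at 67.5 to 71.8 CPM (read counts scaled to an equal total in every library and corrected for library composition) in wild-type and 2.12 to 3.76 CPM in mutants at 6 hpf, and at 45.2 to 49.2 and 0.529 to 0.992 CPM at 8 hpf. It was at 16.7 to 32.6 CPM in the CHX libraries, all labelled bmp7-/-, above the untreated mutants, and so did not check these labels. The CHX libraries without protein are headed Aub-/- with neither CHX nor a stage. They were matched by their place beside those headed +BMP. Of 24 markers of tissues of the gastrula, 20 were found, and their summed level was 9385 to 12828 CPM in the untreated libraries and 4472 to 7776 CPM under CHX. In untreated embryos the largest part of the sum was krt4, a keratin of the surface layer, with group means of 5459 to 7445 CPM. Under CHX krt4 had means of 453 CPM without and 283 CPM with BMP2/7. There the mesoderm gene ta was the largest part, at 1032 and 2555 CPM. The keratin krt5 was at or under 0.407 CPM in every library and at 0 in all 6 CHX libraries. In whole embryos, fewer cells of a type and less RNA per cell cannot be told apart.

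Id proteins hold a helix-loop-helix domain but lack the basic stretch with which basic helix-loop-helix (bHLH) factors grip DNA. They pair with E proteins, the widely expressed bHLH partners, and so keep E proteins and the tissue-restricted bHLH factors that depend on them from binding E box sites. In mammalian cells Id genes are among the best known targets of BMP signaling, switched on by phosphorylated Smad proteins. In vertebrates they are known for holding progenitor cells back from differentiation. Zebrafish id2a and id2b both correspond to mammalian Id2. Because the length of each transcript was not used, a level in CPM is compared below between groups for 1 gene and not between genes.

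**Figure D1:**
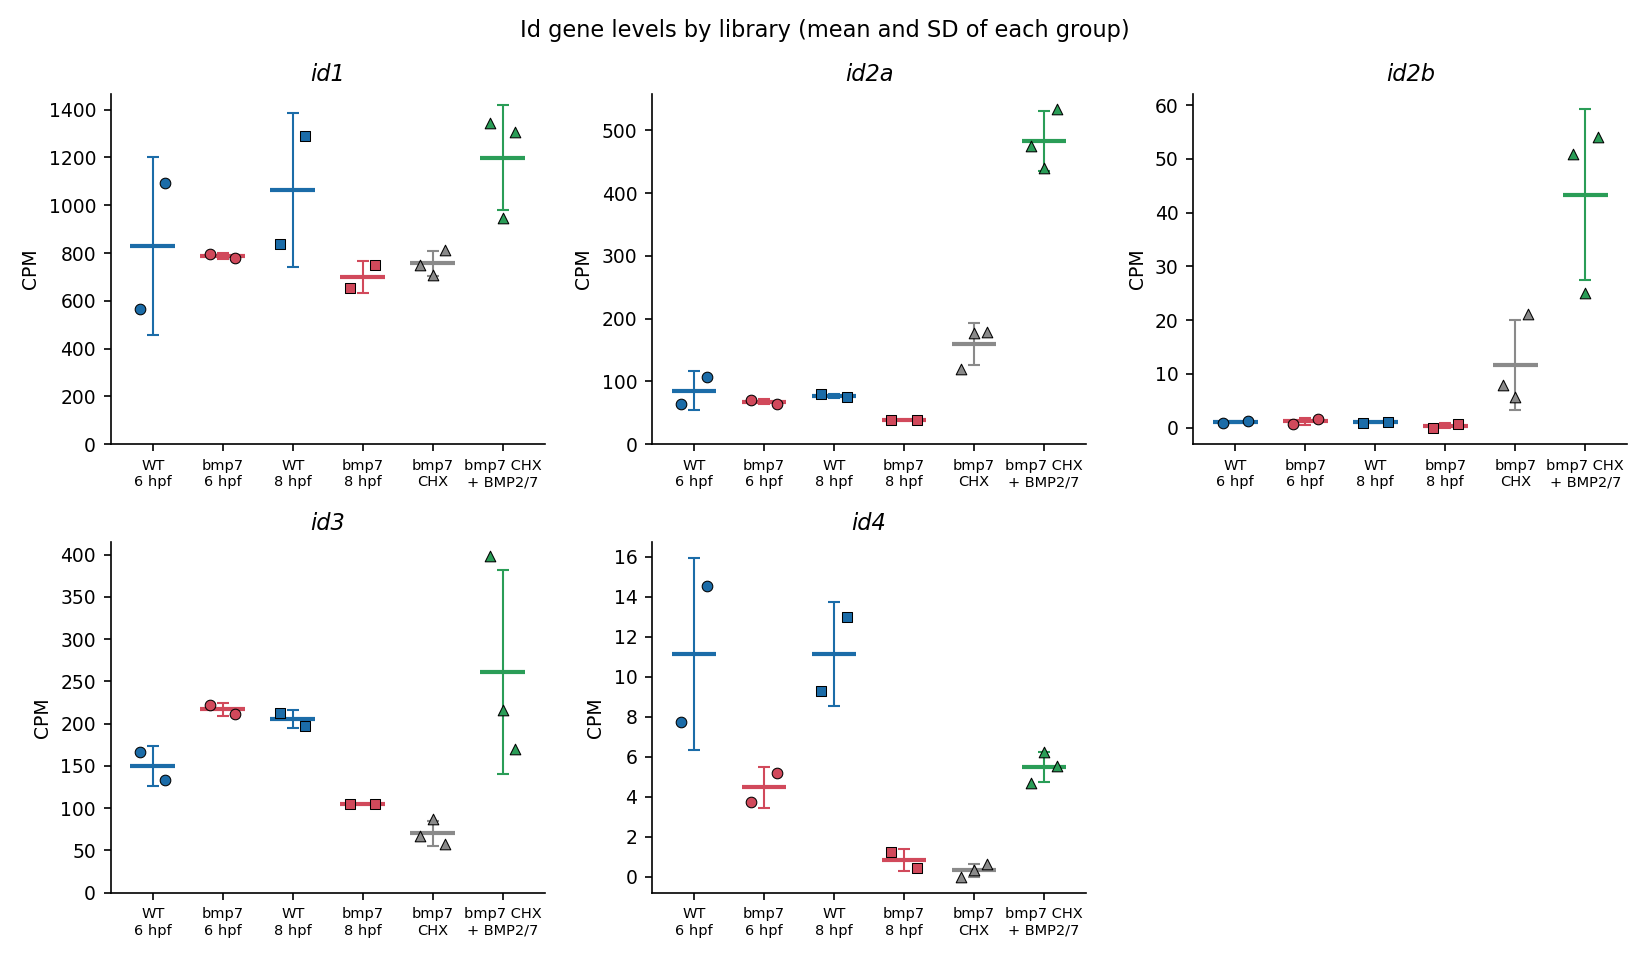
Levels of each Id gene in CPM (y axis, from 0, a scale of its own in each panel) in the 14 libraries by group (x axis). Points are libraries, horizontal lines are group means and bars are the SD over 2 or 3 libraries; id2a and id2b stood highest under CHX with BMP2/7, and id4 stood highest in wild-type.

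The 5 genes had different orders of levels across the 6 groups, as the plot of levels by library shows. For id1 every pair of neighbours in the order overlapped, from 1199 ± 220 CPM (SD, n = 3) under CHX with BMP2/7 down to 701 ± 67.1 CPM (SD, n = 2) in mutants at 8 hpf, a range of 1.71 times. The level of id2a spanned 12.5 times between the same groups, from 483 ± 47.4 CPM (SD, n = 3) to 38.8 ± 0.139 CPM (SD, n = 2), and only wild-type at 6 hpf and at 8 hpf overlapped as neighbours. Its paralog id2b was scarce in untreated embryos, at 0 to 1.59 CPM in all 8 libraries, and stood at 5.72 to 54.0 CPM in the 6 CHX libraries. With so few reads, 0 to 21 per untreated library, differences of id2b among untreated groups were not detectable at this depth. The gene id3 had its highest mean under CHX with BMP2/7, at 261 ± 120 CPM (SD, n = 3), where libraries overlapped those of mutants at 6 hpf. It was lowest under CHX alone, at 70.4 ± 15.0 CPM (SD, n = 3). Wild-type embryos had the highest id4 levels, 11.1 ± 4.81 CPM at 6 hpf and 11.1 ± 2.62 CPM at 8 hpf (SD, n = 2 each). CHX alone had the lowest id4 mean, 0.327 ± 0.314 CPM (SD, n = 3), and overlapped mutants at 8 hpf.

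To ask which Id genes depend on BMP signaling at the onset of gastrulation, wild-type and mutant embryos were compared at 6 hpf. None of the 5 genes passed an adjusted p of 0.05 by the quasi-likelihood test of edgeR, adjusted by Benjamini-Hochberg over all genes tested. Of all 10014 genes tested at this stage 15.3% were called, 8.82% higher and 6.52% lower. For 2 of the 5, id3 and id4, the unadjusted p was under 0.05. DESeq2 called none, and edgeR's likelihood ratio and exact tests called id4. The median log2 fold change (wild-type over mutant) of the 5 genes was 0.09, beside 0.02 over all genes. The gene id4 had 7.74 and 14.5 CPM in wild-type and 3.76 and 5.20 CPM in mutants. Every wild-type library was thus higher, at 1.33 ± 0.46 (log2 fold change ± its standard error, SE), with adjusted p = 0.0806. The levels of id3 ran the other way, with 166 and 133 CPM in wild-type and 222 and 212 CPM in mutants. Its log2 fold change was -0.51 (SE 0.17, adjusted p = 0.0758). With 2 libraries a group, groups that do not overlap were common, at 61.7% of all genes at 6 hpf. For id1 (log2 fold change 0.09, 95% interval -0.59 to 0.78), id2a (0.35, -0.21 to 0.91) and id2b (-0.15, -1.92 to 1.62) the groups overlapped. The 2 wild-type libraries at 6 hpf stood apart for id1, at 568 and 1094 CPM, and for id2a, at 63.4 and 107 CPM.

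By 8 hpf, when the embryo is midway through gastrulation, 2 of the 5 genes were higher in wild-type, id3 and id4, and none was lower. Of all genes tested at this stage, 3.06% were called, 1.91% higher and 1.15% lower. The mutant libraries had 1.24 and 0.463 CPM of id4, from 5 and 7 reads, and the wild-type libraries 9.28 and 13.0 CPM. This was the largest genotype difference in the family, a log2 fold change of 3.96 (SE 0.58, adjusted p = 0.0115). The call was lost without the mutant library 2 at 8 hpf (log2 fold change 3.14, adjusted p = 0.150, with a range of 8.44e-08 to 0.150 over 19 alternatives). The levels of id3 were 213 and 198 CPM in wild-type and 105 and 105 CPM in mutants. Its replicates lay close together, and the log2 fold change was 0.95 (SE 0.18, adjusted p = 0.0274). This call was lost on leaving out wild-type library 1 (adjusted p = 0.115) or 2 (0.0724) or mutant library 1 (0.197) or 2 (0.195) at 8 hpf, while the log2 fold change stayed between 0.91 and 1.01 over 19 alternatives, with adjusted p from 0.00109 to 0.197.

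The other 3 genes also lay higher in every wild-type than in every mutant library at 8 hpf, without passing the test. Groups did not overlap in this direction for 30.2% of all genes. The gene id2a had 79.8 and 75.3 CPM in wild-type and 38.7 and 38.9 CPM in mutants, a log2 fold change of 0.98 (SE 0.25, adjusted p = 0.0709). Leaving out the wild-type library 1 or 2 at 6 hpf, which enter the shared estimate of the spread, gave an adjusted p of 0.0293 or 0.0305, within a range of 0.0125 to 0.307 over 19 alternatives. In all, 9 of the 19 called id2a, among them DESeq2 (0.0125), the likelihood ratio test (0.0168), the exact test (0.0185) and a fit of these groups alone (0.0327). For id1 the values were 837 and 1291 CPM against 654 and 748 CPM, a log2 fold change of 0.59 (SE 0.30, adjusted p = 0.280). The second copy of Id2, id2b, had 0.906 and 0.987 CPM in wild-type and 0 and 0.727 CPM in mutants. The library at 0 was the shallowest one, in which 3 reads would have been 0.744 CPM. These id2b levels came from 12 and 13 reads in wild-type and 0 and 11 in mutants. It passed the filter through wild-type libraries, so its direction was no test. The median log2 fold change of the family, id2b included, was 0.95 at 8 hpf, beside 0.01 over all genes. Of 19 tissue markers tested at this stage, 3 were higher in wild-type and 1 lower, and their summed level was 9725 to 11694 CPM in wild-type and 11325 to 12828 CPM in mutants. The lower one was chrd, a gene of the dorsal organizer (log2 fold change -1.15, adjusted p = 0.0425). The 3 higher ones were the ventral ectoderm genes foxi1, tfap2c and tfap2a. The level of foxi1 was 142 to 162 CPM in wild-type and 0.992 CPM in both mutant libraries. For tfap2c it was 425 to 462 and 46.5 to 61.2 CPM, and for tfap2a 495 to 508 and 204 to 230 CPM. The remaining ventral ectoderm gene listed, tp63, did not pass (log2 fold change 2.77, adjusted p = 0.0868). At 6 hpf foxi1 was at 37.7 to 80.3 CPM in wild-type and 6.26 to 12.5 CPM in mutants, and tfap2c at 315 to 390 and 111.6 to 159.6 CPM. At that stage tfap2a was at 261 to 315 CPM in wild-type and 319 to 331 CPM in mutants. There id3 was at 133 and 166 CPM in wild-type and 212 and 222 CPM in mutants. The part of these markers in the Id levels was not tested.

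Whether the genotype difference itself changed from 6 to 8 hpf was tested as an interaction, which is also the difference between the genotypes in their change with stage. By edgeR's quasi-likelihood test no gene passed (0%). The unadjusted p was under 0.05 for 554 genes, and DESeq2 called 21. The gene id3 stood at rank 5 of 10014 by p. Its interaction was 1.47 on the log2 scale (SE 0.25, unadjusted p = 0.000218, adjusted p = 0.384), and the adjusted p was 0.00746 with DESeq2 and 0.00731 with the likelihood ratio test, within a range of 0.00731 to 1.0 over 17 alternatives. For id4 it was 2.63 (SE 0.74, adjusted p = 0.744) at rank 80. The remaining 3 genes had interactions of 0.50 (id1), 0.63 (id2a) and 1.07 (id2b), each with a 95% interval that held 0.

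By genotype, id3 and id4 fell from 6 to 8 hpf in mutants and none of the 5 genes passed the test in wild-type. Of all genes, 10.9% were called with stage in mutants, 5.35% higher and 5.58% lower, and 1.73% in wild-type, 1.04% higher and 0.689% lower. In wild-type the unadjusted p was under 0.05 for id3 alone, and DESeq2 called none of the 5. With library sizes alone in place of the composition factors, the median of all genes moved by 0.11 on the log2 scale in each genotype. Higher genes were then 59.0% of the calls in mutants instead of 48.9%, and 73.6% instead of 60.1% in wild-type. In mutants id3 fell by 1.01 on the log2 scale (SE 0.18, adjusted p = 0.0109), from 222 and 212 to 105 and 105 CPM. Its level in wild-type was 166 and 133 CPM at 6 hpf and 213 and 198 CPM at 8 hpf, a log2 fold change of 0.45 (SE 0.17, adjusted p = 0.227). The level of id4 in mutants fell by 2.63 on the log2 scale (SE 0.59, adjusted p = 0.0262), from 3.76 and 5.20 to 1.24 and 0.463 CPM. In wild-type its mean was the same to 3 digits, and the fitted change was 0.00 on the log2 scale (95% interval -1.0 to 1.0). Both stage calls in mutants depended on single libraries. For id3 the adjusted p was 0.0792 without mutant library 1 at 6 hpf, and 0.0722 and 0.121 without library 1 or 2 at 8 hpf (range over 19 alternatives 0.000170 to 0.121). For id4 it was 0.0856 and 0.0752 without mutant library 1 or 2 at 6 hpf, and 0.0511 and 0.278 without library 1 or 2 at 8 hpf (range 0.000943 to 0.278). The level of id2a in mutants was 70.7 and 64.8 CPM at 6 hpf and 38.7 and 38.9 CPM at 8 hpf, a log2 fold change of -0.77 (SE 0.25, adjusted p = 0.0835). Without wild-type library 1 or 2 at 6 hpf its adjusted p was 0.0342 or 0.0372 (range over 19 alternatives 0.0338 to 0.345), and 5 of the 19 called it. Of 19 tissue markers tested between stages in mutants, 4 fell, 1 rose and 14 did not pass. Those that fell were foxi1 (log2 fold change -3.20, adjusted p = 0.0103), tfap2c (-1.30, 0.0117), the mesoderm gene ta (-1.75, 0.00719) and the claudin gene cldne (-1.06, 0.0127). The marker that rose was chrd, a gene of the dorsal organizer (1.18, 0.0200). The part of these markers in the Id levels was not tested.

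To find which Id genes respond to BMP without newly made proteins, BMP2/7-injected and uninjected mutants were compared, both under CHX. All 5 genes lay higher in each of the 3 injected than in each of the 3 uninjected libraries, a pattern shared by 7.12% of all 9446 genes tested. Of the 5 genes, 3 passed the test, id2a, id3 and id4, and all were higher. Of these, id4 passed the filter on low counts through the injected libraries, where it was high, so its direction was no test. Of all genes 2.28% were called, 1.91% higher and 0.371% lower. Same-numbered libraries deviated together in these groups, and with the replicate number as a block all 5 genes were called. The median log2 fold change of the family was 1.90, beside 0.00 over all genes.

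The gene id2a rose from 120, 177 and 179 CPM to 476, 440 and 534 CPM, with the smallest p of the family. Its log2 fold change was 1.62 (SE 0.17, adjusted p = 0.00314), and it was called in all 16 alternatives at the same threshold. Within same-numbered pairs it was 3.95, 2.48 and 2.98 times higher. The level of id3 rose from 66.8, 86.9 and 57.6 CPM to 398, 216 and 170 CPM, a log2 fold change of 1.90 (SE 0.30, adjusted p = 0.0170). Its injected library 1 stood well above the other two, and the pairs differed by 5.96, 2.48 and 2.96 times. The call for id3 was lost without the CHX library 1 (adjusted p = 0.123) or 3 (0.0582), within a range of 1.35e-08 to 0.123 over 16 alternatives. The rarest member, id4, rose from 0, 6 and 7 reads (0, 0.354 and 0.627 CPM) to 98, 78 and 59 reads (4.70, 6.24 and 5.53 CPM). The fitted log2 fold change was 4.07 (SE 0.62, adjusted p = 0.0132), and the adjusted p was 0.0579 without the injected library 1 (range over 16 alternatives 2.77e-14 to 0.0579). In the pair with 0 reads under CHX, id4 was at least 19.7-fold higher when 3 reads stand in for 0, and in the other pairs it was 17.6 and 8.83 times higher.

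For id1, levels were 750, 709 and 813 CPM under CHX alone and 1344, 946 and 1308 CPM with BMP2/7. The log2 fold change was 0.68 (SE 0.14, adjusted p = 0.0553), and with the replicate block it was 0.66 (adjusted p = 0.00106). Its pairs differed by 1.79, 1.33 and 1.61 times. The levels of id2b were 7.97, 5.72 and 21.2 CPM without and 50.9, 25.1 and 54.0 CPM with BMP2/7. The CHX library 3 of id2b stood apart from the other two, and the log2 fold change was 1.92 (SE 0.50, adjusted p = 0.135) without and 2.04 (adjusted p = 0.000253) with the block. Leaving out this library gave id2b a log2 fold change of 2.70 (adjusted p = 0.0189, range over 16 alternatives 0.000253 to 0.410), and leaving out the injected library 2 gave id1 0.82 (adjusted p = 0.0134, range 0.00106 to 0.256). Of the tissue markers, 4 of 18 tested were higher with BMP2/7 and none lower, and their summed level was 6036 to 7776 CPM with and 4472 to 5663 CPM without it. Their part in the Id levels was not tested.

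**Figure D2:**
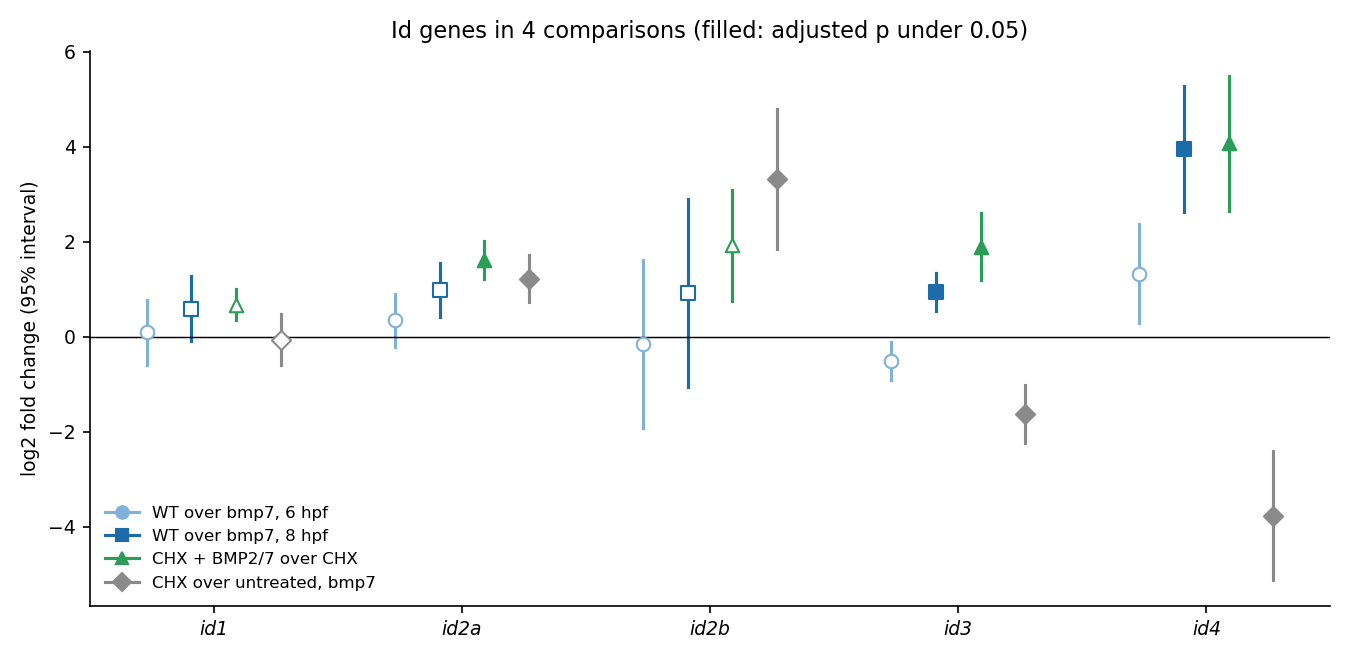
Log2 fold changes (y axis) of the Id genes (x axis) for wild-type over mutant at 6 and 8 hpf, CHX with BMP2/7 over CHX alone, and CHX alone over untreated mutants at 6 hpf, with points for the estimate, bars for its 95% interval and filled points for an adjusted p under 0.05. With BMP2/7 under CHX all 5 estimates lay above 0, while CHX-treated over untreated mutants ran from 3.32 for id2b down to -3.77 for id4.

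CHX-treated mutants, exposed at 4 hpf, were also compared with untreated mutants at 6 hpf (shield stage). These groups differed in CHX, in handling and in the number of embryos per library, and may have differed in stage. Such differences cannot be told apart. Between the groups 58.1% of all 10750 genes tested were called, 29.6% higher and 28.5% lower under CHX. Of the 5 genes, id2a and id2b were higher under CHX and id3 and id4 lower, and these calls held in all 24 alternatives. With 58.1% of all genes called in about equal parts, such a split among 5 genes is no trait particular to the Id family. The level of id2a was 120 to 179 CPM under CHX and 64.8 to 70.7 CPM in untreated mutants, a log2 fold change of 1.23 (SE 0.22, adjusted p = 0.000467). For id2b the levels were 5.72 to 21.2 and 0.712 to 1.59 CPM, a log2 fold change of 3.32 (SE 0.68, adjusted p = 0.00111). The levels of id3 were 57.6 to 86.9 under CHX and 212 to 222 CPM untreated, a log2 fold change of -1.63 (SE 0.28, adjusted p = 0.000290). Those of id4 were 0 to 0.627 and 3.76 to 5.20 CPM, a log2 fold change of -3.77 (SE 0.63, adjusted p = 0.000236). Of 19 tissue markers tested, 5 were higher and 11 lower under CHX, and their part in the Id levels was not tested. The level of id1 was 709 to 813 CPM under CHX and 778 to 798 CPM untreated, with a log2 fold change of -0.06 (95% interval -0.60 to 0.48). With library sizes alone the median of all genes moved by 0.48 on the log2 scale, id1 turned to 0.42 and 69.6% of all calls were higher, instead of 50.9%.

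All Id reads were also summed per library, as a description of the family rather than a measure per transcript length. The summed level was 945 to 1071 CPM under CHX alone and 1633 to 2273 CPM with BMP2/7, a ratio of the means of 2.0. At 8 hpf it was 1139 to 1578 CPM in wild-type and 798 to 893 CPM in mutants, a ratio of 1.61. At 6 hpf the wild-type libraries, at 806 and 1351 CPM, lay on either side of the mutant ones, at 1061 and 1095 CPM. The make-up of the sum moved under CHX. The reads of id1 took 72.4 to 79.4% of Id reads under CHX alone and 57.9 to 63.1% with BMP2/7, and those of id2a 12.7 to 18.1% and 20.9 to 26.9%. In the 8 untreated libraries id1 took 70.4 to 83.8%, id2a 4.35 to 7.95% and id3 9.87 to 20.6% of Id reads. The members id2b and id4 never passed 2.61% and 1.08%.

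**Figure D3:**
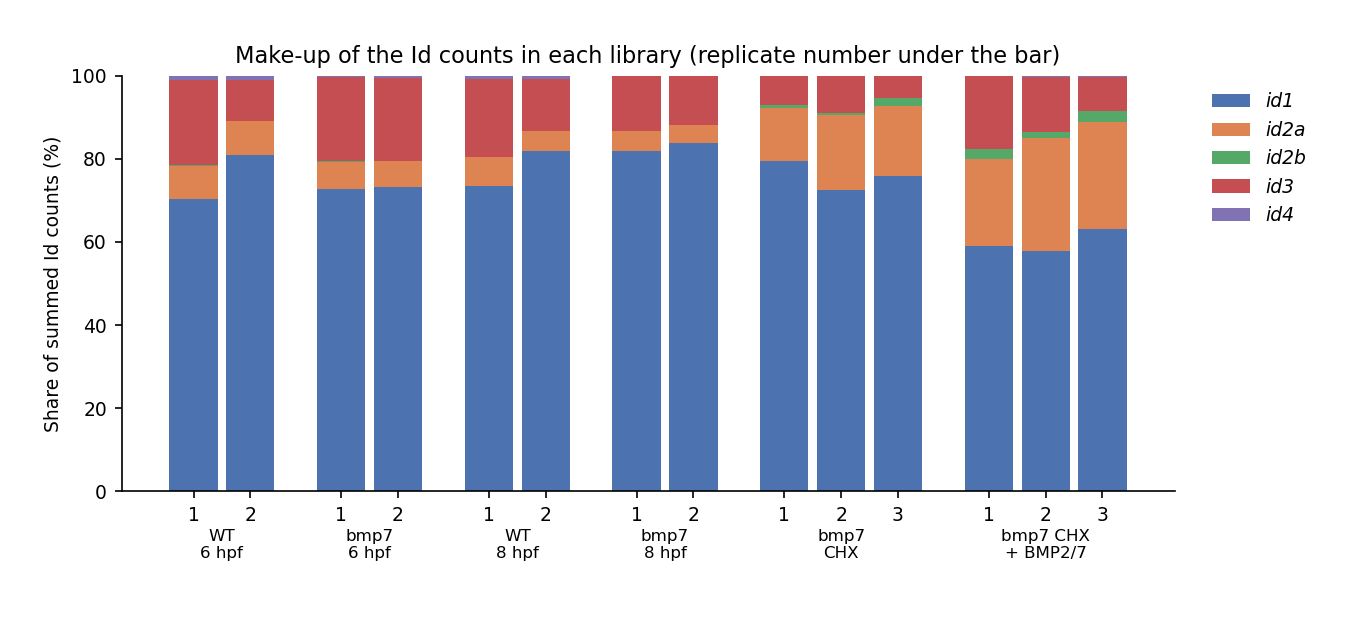
Share of the summed Id reads (y axis, %) taken by each Id gene in each of the 14 libraries (x axis, replicate number and group); colours are genes. The id1 segment was shortest in the 3 CHX libraries with BMP2/7, at 57.9 to 63.1%, and the id2a segment longest, at 20.9 to 26.9%.

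Among the members, the log2 levels of id2a and id2b were most alike over the 14 libraries (Pearson r = 0.941), followed by id3 and id4 (r = 0.756). The pair id2b and id4 was least alike (r = -0.101). These values describe 14 libraries that share 6 groups and fall into untreated and CHX libraries. Within the 8 untreated libraries the highest r was that of id2a and id4, 0.918, and within the 6 CHX libraries it was 0.982 for the same pair.

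The genes whose log2 levels were most like those of each Id gene over the 14 libraries were taken from 7518 genes with a mean of at least 5 CPM. For id2a these were smad7, an inhibitory Smad that damps BMP and TGF-beta signaling (r = 0.974), fzd4, a Wnt receptor (r = 0.953), and chfr, a mitotic checkpoint ubiquitin ligase (r = 0.950). Like id2a, smad7 was highest under CHX with BMP2/7, at 141 ± 10.1 CPM (SD, n = 3), and next under CHX alone, at 38.7 ± 2.15 CPM (SD, n = 3). Those of id2b were ldlrad4b (r = 0.964), whose human counterpart dampens TGF-beta signaling, klf17, a Krüppel-like factor (r = 0.958), and vti1a, a vesicle fusion protein (r = 0.950). The likeness of id2b rests on few reads outside the CHX libraries: ldlrad4b was at 0.430 to 0.943 CPM on average in each untreated group, against 26.5 ± 6.48 CPM (SD, n = 3) under CHX with BMP2/7.

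The genes most like id1 were less close, fkbp5, a co-chaperone (r = 0.815), gata2a, a GATA factor of ventral ectoderm and blood (r = 0.766), and klf2b, a Krüppel-like factor (r = 0.753). For id3 they were asl, the argininosuccinate lyase of the urea cycle (r = 0.910), slc14a2, a urea transporter (r = 0.850), and cuedc1a (r = 0.808). The last was also most like id4 (r = 0.904), ahead of hsd3b2, a steroid dehydrogenase (r = 0.804), and nfkbiab, an NF-kappaB inhibitor (r = 0.803). Averages of cuedc1a were 7.25, 6.22 and 7.73 CPM in wild-type at 6 hpf, mutants at 6 hpf and wild-type at 8 hpf, and 2.57 CPM in mutants at 8 hpf. Under CHX they were 2.66 CPM without and 7.05 CPM with BMP2/7. Within the 8 untreated libraries r was 0.903 for id4 and cuedc1a, 0.821 for id2a and smad7, 0.875 for id1 and fkbp5, and 0.737 for id3 and asl. Over the 15 pairs it ran from 0.442 (id3 and slc14a2) and 0.450 (id4 and hsd3b2) to 0.903.

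**Figure D4:**
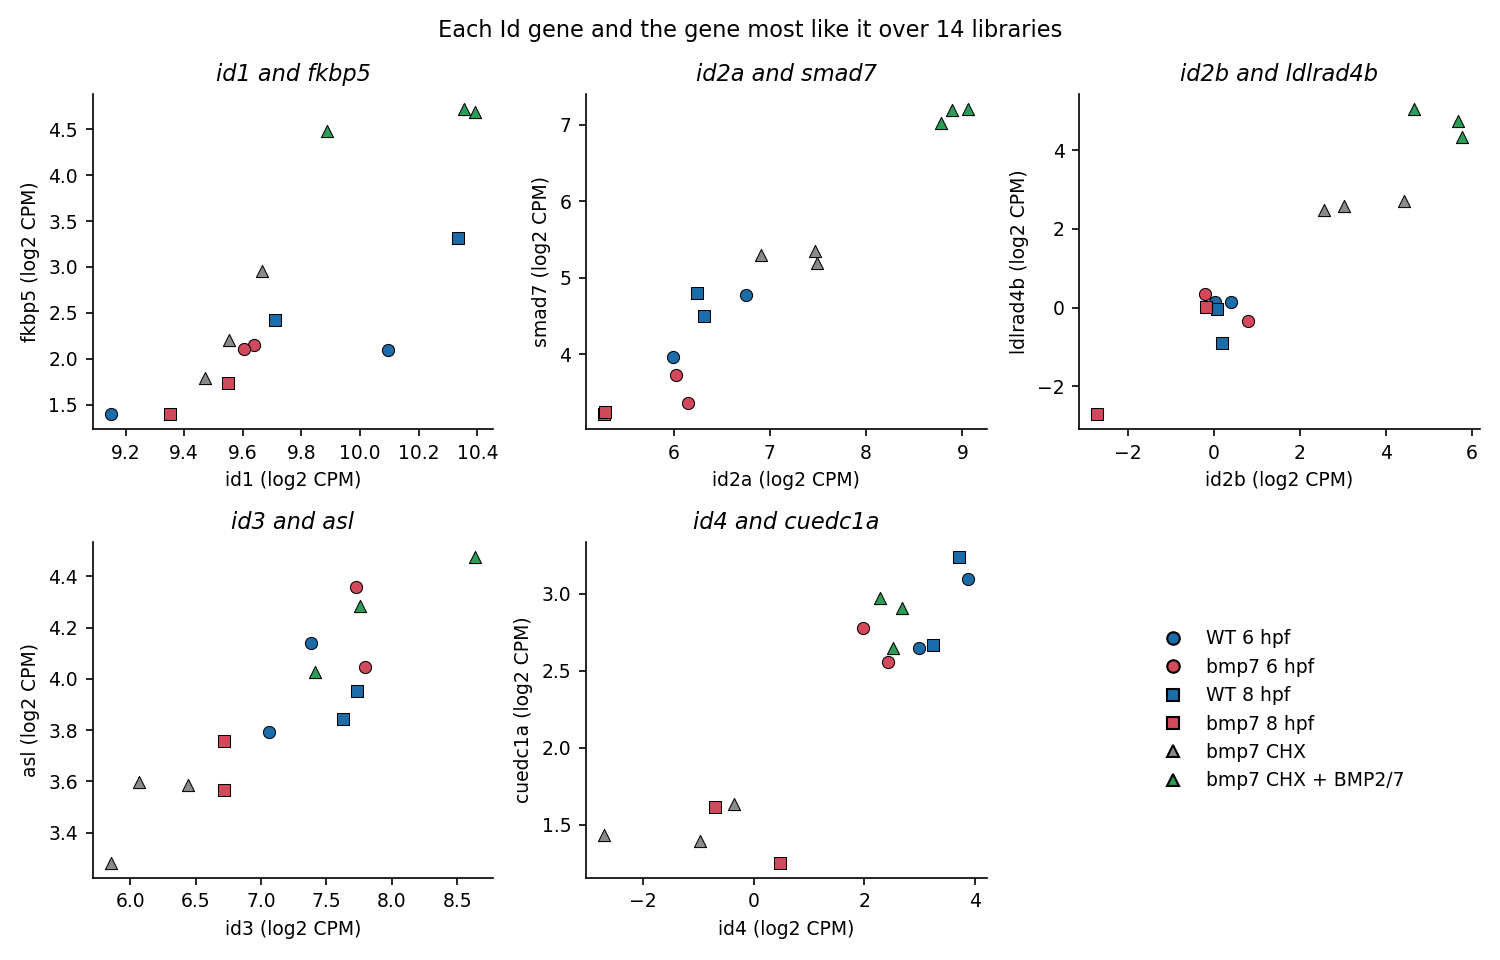
Log2 CPM of each Id gene (x axis) against that of the gene most like it (y axis), 1 point per library, with colour and shape for the group in the key. The CHX libraries with BMP2/7 were highest on the y axis for id1, id2a and id2b, and for id4 the mutants at 8 hpf and CHX alone lay apart at the lower left.

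The E proteins are the direct partners of Id proteins. Of 4 genes listed, 3 were found by symbol, tcf3a (the zebrafish gene for E12 and E47), tcf3b and tcf12, and tcf4 was not analysed here. The level of tcf3a was 79.4 and 37.2 CPM in wild-type and 11.8 and 5.73 CPM in mutants at 6 hpf, a log2 fold change of 2.75 (SE 0.53, adjusted p = 0.0137). At 8 hpf it was 48.0 and 24.4 CPM against 6.45 and 11.2 CPM, a log2 fold change of 1.97 (SE 0.52, adjusted p = 0.0735). The gene tcf12, whose mammalian product is known as HEB, ran the other way. It had 6.26 and 11.1 CPM in wild-type and 19.7 and 23.1 CPM in mutants at 6 hpf (log2 fold change -1.28, SE 0.32, adjusted p = 0.0318), and 23.7 and 21.7 against 44.1 and 62.7 CPM at 8 hpf (log2 fold change -1.26, adjusted p = 0.0673).

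From 6 to 8 hpf tcf12 rose in mutants, by 1.36 on the log2 scale (SE 0.32, adjusted p = 0.0290). That call was lost without mutant library 1 (0.186) or 2 (0.0747) at 6 hpf or 1 (0.0671) or 2 (0.246) at 8 hpf, within a range of 0.00144 to 0.246 over 19 alternatives. Between CHX-treated and untreated mutants tcf3a was higher and tcf12 lower. For tcf3a the log2 fold change was 1.53 (SE 0.47, adjusted p = 0.0134, and 0.137 without mutant library 2 at 6 hpf, with a range of 0.00153 to 0.137 over 24 alternatives). The level of tcf12 was 0.448 to 1.35 CPM under CHX alone, against 19.7 and 23.1 CPM in untreated mutants at 6 hpf (log2 fold change -4.79, SE 0.50, adjusted p = 5.00e-06). It was too low to be tested against BMP2/7. The level of tcf3a under CHX was 16.3 to 35.5 CPM without and 24.1 to 33.9 CPM with BMP2/7 (log2 fold change 0.28, adjusted p = 0.885), and these groups overlapped. The call for tcf3a at 6 hpf was lost without wild-type library 1 (adjusted p = 0.0541) or mutant library 2 (0.0891) of that stage, within a range of 5.36e-07 to 0.0891 over 19 alternatives. The call for tcf12 was lost without wild-type library 1 at 6 hpf (0.149), mutant library 1 (0.0725) or 2 (0.137) at 6 hpf, or mutant library 1 (0.0521) or 2 (0.0535) at 8 hpf, within a range of 0.00210 to 0.149. Finally, tcf3b stayed at or below 0.793 CPM in every library and was not tested.

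**Figure D5:**
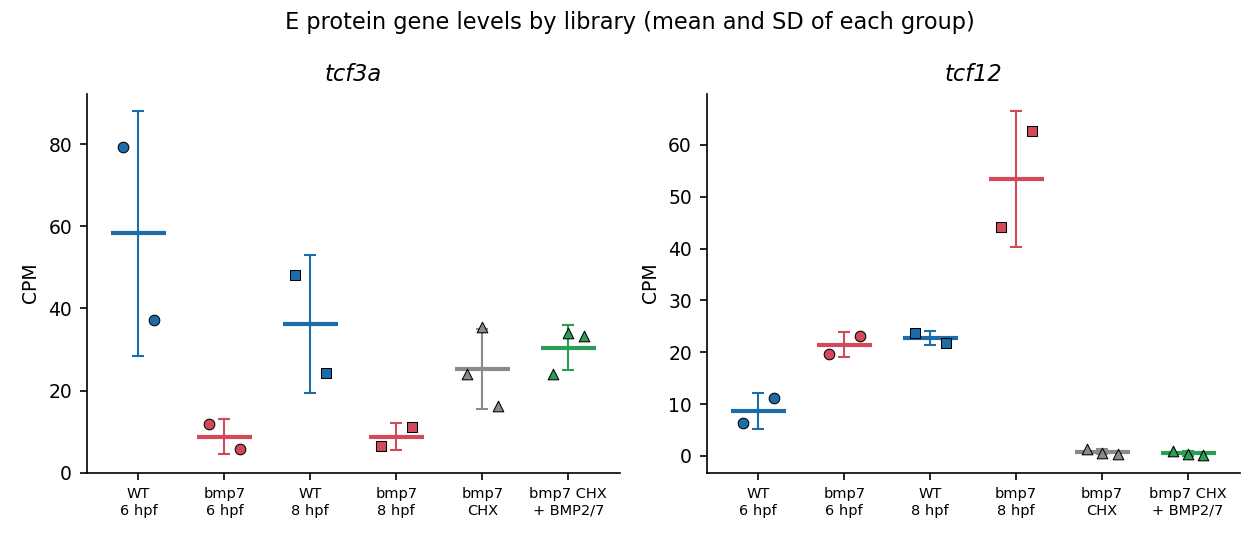
Levels of tcf3a and tcf12 in CPM (y axis, from 0) in the 14 libraries by group (x axis); points are libraries, horizontal lines are means and bars are the SD over 2 or 3 libraries. At 6 hpf wild-type lay above mutants for tcf3a and below them for tcf12, and tcf12 stood at or under 1.35 CPM in every CHX library.

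Many tissue-restricted bHLH factors depend on E proteins as partners. Of 32 listed, not all of which need such a partner (bhlhe40 and bhlhe41 among them), 17 were tested in untreated embryos. At 6 hpf 1 was higher in wild-type and none lower, beside 8.82% higher and 6.52% lower over all genes. At 8 hpf 1 was higher and 1 lower, beside 1.91% and 1.15% of all genes. The higher one was olig4, a factor of neural progenitors, at 2.62 and 3.94 CPM in wild-type at 6 hpf and 9.13 and 13.2 CPM at 8 hpf, with 0 reads in all mutant and CHX libraries, where 3 reads would have been 0.144 to 0.744 CPM. Thus olig4 passed the filter through the wild-type libraries, where it was high, so its direction was no test. The call for olig4 at 8 hpf was lost without mutant library 2 of that stage (adjusted p = 0.0561, range over 19 alternatives 3.53e-15 to 0.0561). From 6 to 8 hpf, 9 of the 17 rose in mutants and none fell, beside 5.35% higher and 5.58% lower over all genes. The median log2 fold change of the 17 was 3.01, beside 0.02 over all genes. In wild-type 2 rose, beside 1.04% of all genes, with a median of 1.29. Some factors passed the filter through the 8 hpf libraries. In mutants olig2 averaged 0.365 CPM at 6 hpf and 4.76 CPM at 8 hpf, and bhlhe40 0.0509 and 1.44 CPM. For such factors a fall could hardly have been seen, so this count and the medians are no test of direction. Among the 9 was twist1a, a mesenchyme factor, at 4.06 and 66.6 CPM on average (log2 fold change 4.07, adjusted p = 0.00667; 0.0543 without mutant library 2 at 8 hpf).

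Under CHX with BMP2/7, 4 of the 32 factors were tested and 1 was higher, beside 1.91% higher and 0.371% lower over all genes. The higher factor was hand2, a factor of heart and ventral mesoderm. It passed the filter through the injected libraries, where it was high, so its direction was no test. From 4, 1 and 10 reads it had 0.319, 0.0589 and 0.895 CPM without and 4.90, 3.68 and 3.94 CPM with BMP2/7 (log2 fold change 3.41, SE 0.62, adjusted p = 0.0293). This call was lost without the CHX library 1 (adjusted p = 0.180) or the injected library 1 (0.153), 2 (0.0708) or 3 (0.0717), within a range of 2.24e-07 to 0.180 over 16 alternatives. Between CHX-treated and untreated mutants 7 of 19 were lower and none higher, beside 28.5% lower and 29.6% higher over all genes. Among the 7 were myf5 and the paraxial mesoderm gene msgn1, at 2.31 against 278 CPM on average (log2 fold change -6.94, adjusted p = 2.92e-08). The myogenic gene myf5 was at 0 to 0.177 CPM under CHX alone and 16.8 CPM on average in untreated mutants (adjusted p = 8.69e-08).

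The Her and Hey repressors are another bHLH family of inhibitors, some but not all of them driven by Notch signaling. Of 21 listed, 12 were tested under CHX with BMP2/7, and only hes6 was higher, at 95.6, 70.9 and 70.2 CPM with and 39.7, 38.3 and 41.3 CPM without BMP2/7 (log2 fold change 1.0, SE 0.14, adjusted p = 0.0112). Its call was lost without the CHX library 1 (adjusted p = 0.0748) or the injected library 1 (0.0566), within a range of 4.04e-07 to 0.0748 over 16 alternatives. The median of the 12 was -0.15 on the log2 scale, and 1.91% of all genes were higher in this comparison. Of 13 tested between the genotypes, wild-type had none higher and 1 lower at 6 hpf, beside 8.82% and 6.52% of all genes. The lower one was again hes6, opposite in direction to its rise with BMP2/7. It averaged 202 CPM in wild-type and 340 CPM in mutants (log2 fold change -0.73, adjusted p = 0.0324). At 8 hpf wild-type had 1 in each direction, beside 1.91% higher and 1.15% lower over all genes, and hes6 did not pass (-0.21, adjusted p = 0.534).

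Feedback genes of the BMP pathway, which encode its ligands, inhibitors and inhibitory Smads, were counted beside the Id genes. With BMP2/7 under CHX, 9 of 15 tested were higher and none lower, with a median log2 fold change of 1.53, while 1.91% of all genes were higher. Among the 9, nog2, smad6a and smad6b passed the filter through the injected libraries, where they were high. They averaged 0.0196, 0.609 and 0.500 CPM without and 64.8, 7.08 and 32.5 CPM with BMP2/7. For such genes a fall could hardly have been seen, so this count and the median are no test of direction. The inhibitory Smad gene smad7 had a log2 fold change of 1.88 (SE 0.11, adjusted p = 0.000226), and for szl, the secreted protease inhibitor Sizzled, it was 4.45 (SE 0.25, adjusted p = 0.000154). At 6 hpf 4 of 14 were higher in wild-type and none lower (8.82% of all genes higher), and at 8 hpf 3 were higher and 1 lower (1.91% and 1.15% of all genes). Between the genotypes szl passed the filter through wild-type libraries, so its direction was no test. At 6 hpf it averaged 7.44 CPM in wild-type and 0 CPM in mutants. The pseudoreceptor gene bambia was among the higher ones each time, at 1.29 ± 0.22 (log2 fold change ± SE, adjusted p = 0.010) for 6 hpf and 3.44 ± 0.24 (adjusted p = 0.000244) for 8 hpf.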

How the data were processed

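The authors used RUM, an RNA-seq mapper, with the GRCz11 build and deposited raw read counts for 14532 RefSeq transcripts. Its version, and whether counting used strand, were not given in the sources used here. The 14 normalized log2 columns of the same libraries and the authors' own comparison columns (fold changes, p-values and FDR) were not used. The headings of those comparisons swap the names of the untreated genotypes. The library headings therefore set the groups, together with the bmp7a level in the untreated libraries.

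For a gene with several transcripts the row with the highest counts was kept. Differences were tested in R 4.3.3 with edgeR 4.0.16 (quasi-likelihood test, TMM factors, filterByExpr with a minimum count of 10), and p-values were adjusted by Benjamini-Hochberg over all genes tested, with calls under 0.05. One fit held the 8 untreated libraries in 4 groups, another the 6 CHX libraries in 2, and CHX against untreated came from a fit of all 14. The biological coefficients of variation were 0.270, 0.220 and 0.249. The sources do not say that replicates were separate clutches, so p-values measure the spread between these pools, which may be technical. Replicates differed by more than sampling noise. Levels are CPM with TMM factors over 14 libraries, and likeness used log2 CPM with a prior count of 2. A floor of 3 counts stands in for 0 and covers counting error only.

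Alternatives were RLE factors, library size alone, no filter or a minimum of 30, DESeq2 1.42.0, the likelihood ratio and exact tests, summed transcripts, a replicate block, other sets of libraries, a threshold of 0.01 and leaving out each library. CHX libraries that share a number departed from their group means alike (r = 0.343, 0.636 and 0.591), so the number may pair them, which the labels do not say. The main test and the runs that left out a library did not use this pairing, and the block was an alternative only.

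The members, lists and tests were chosen with earlier results of these data known. Named were the 5 Id genes, the 3 genes most like each of them, bmp7a and the E proteins. From the other lists, genes were named mostly among the 4 with the smallest p in a comparison, but not all of these were named. Under CHX with BMP2/7 the feedback gene with the smallest p was nog2, at 0.0196 CPM without and 64.8 CPM with the protein. Some tissue markers were named outside this rule. No sequences or promoter motifs are shown, because no table of sequences was used here.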

Additional observations from a re-analysis of the deposited data

Results flagged for a closer look

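The genotype difference of id3 had opposite signs at the stages: every mutant library lay above every wild-type library at 6 hpf (log2 fold change -0.51), and every wild-type library above every mutant library at 8 hpf (0.95). Groups did not overlap for 61.7% of all genes at 6 hpf, in either direction. At 8 hpf wild-type lay above for 30.2% of all genes. The share of genes that turned between the stages was not counted, and the marker gene tfap2a turned in the same way. The difference of id3 between the stages was 1.47 on the log2 scale. Its adjusted p was 0.384 by edgeR's quasi-likelihood test, 0.00731 by its likelihood ratio test and 0.00746 by DESeq2. With 2 or 3 libraries a group, no test for a single library far from the rest was made.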

How the results depend on the processing

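With 2 libraries a group, the calls of id3 and id4 at 8 hpf and between stages in mutants were each lost on leaving out at least 1 library. For id4 they rest on 5 and 7 reads in the mutants at 8 hpf, and the shallowest library holds 5034277 counts. The number of Id genes called was 1 instead of 0 at 6 hpf with the likelihood ratio test (id4), the exact test (id4) and the replicate block (id3), and 1 instead of 0 in the interaction with DESeq2 and the likelihood ratio test (id3). With BMP2/7 under CHX it was 5 instead of 3 with DESeq2, the likelihood ratio test, the exact test and the replicate block, and 1 at an adjusted p under 0.01. At that threshold it was 0 instead of 2 at 8 hpf and in mutants between stages. Leaving out single libraries gave 0 to 3 Id genes called at 8 hpf and 0 to 3 in mutants between stages. In both of these comparisons several settings also called id2a: at 8 hpf DESeq2, the likelihood ratio and exact tests, no filter, all 14 libraries, the 2 groups alone and the block, and between stages DESeq2 (0.0400), all 14 libraries (0.0383) and the 2 groups alone (0.0338). With all 14 libraries in a single fit, id2a was called at 8 hpf (adjusted p 0.0262) and id3 was not (0.0729). The cause was not tested, apart from the stricter threshold and the smaller number of libraries.

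In untreated libraries, too, the labels tie no number to a batch. Same-numbered libraries there had r = 0.180 between genotypes at 6 hpf, -0.0110 at 8 hpf, and 0.440 and 0.315 between stages in wild-type and in mutants. The block gave id2a at 8 hpf an adjusted p of 0.0379. It changed no other Id call than those named.

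Signs turned only for values that passed no test. For id4 between stages in wild-type the log2 fold change was -0.00870 with RLE factors, -0.0128 without a filter, -0.00859 with DESeq2 and -0.00287 with all 14 libraries. For id1 between CHX-treated and untreated mutants it was 0.42 with library size alone. On leaving out single libraries, log2 fold changes at 6 hpf ran from -0.43 to 0.49 for id1, from -0.057 to 0.68 for id2a and from -0.60 to 0.54 for id2b. Between stages in wild-type they ran from -0.032 to 0.90 for id1, from -0.46 to 0.28 for id2a, from -0.29 to 0.10 for id2b and from -0.38 to 0.52 for id4. The summed Id ratio, looked at after seeing the data, stayed between 1.86 and 2.18 under CHX and between 1.35 and 1.83 at 8 hpf.

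Counts of all genes called ranged, over settings other than the stricter threshold and leaving out a library, from 885 to 2421 at 6 hpf (1536 as reported), from 289 to 1013 at 8 hpf (306), from 6 to 636 between stages in wild-type (173), from 1088 to 1823 in mutants (1095), and from 157 to 748 with BMP2/7 under CHX (215), with 748 under the replicate block. Leaving out a library took them as low as 248, 46, 12, 53 and 92.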
